A study of Mus musculus with 6 samples.

Results

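The 40 genes of epithelial structure described here were read out of the deposited expression table of 21938 genes. They were taken by name, as keratins, cell adhesion molecules, desmosomal and tight junction genes, membrane serine proteases and their inhibitors, epithelial trafficking genes and laminins, in 11 groups by role. The rule uses no measured value, and all 40 were measured and above 0 in every library. The tissue was mouse soft palate at embryonic day 14 (E14.0), profiled by RNA sequencing. The 3 control libraries (replicates 1, 2 and 3) came from β-catenin fl/fl mice, which carry loxP-flanked alleles of Ctnnb1 and no Cre; other label fields call them wild type. The 3 mutant libraries (replicates 5, 6 and 7) came from Osr2-Cre;β-catenin fl/fl mice, in which Cre is driven by Osr2. The floxed alleles are therefore shared by both groups, and the Cre is carried by the mutant alone. Osr2 is a gene of the palatal mesenchyme, the tissue beneath the epithelium described here. The labels do not say whether a library is 1 embryo or a pool, so a p-value here reflects only how much these 6 libraries vary.

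The palate is covered by an epithelium whose basal cells make Krt5 and Krt14, with a flat outer layer, the periderm, that makes Krt6a and Krt17. Keratins form filaments as pairs of a type I and a type II protein, and desmosomes tie the filaments of neighbouring cells together. Tight junctions, built from claudins and MARVEL proteins, seal the space between cells. The oral side of the soft palate matures into a stratified squamous epithelium and the nasal side into a ciliated columnar one. β-catenin binds the tail of E-cadherin at adherens junctions and is also the transcriptional effector of canonical Wnt signalling.

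Promoter sequence is shown for a basal keratin, for the Krt8 and Krt18 filament pair, and for Rab25; Krt18 and Rab25 are among the members with the smallest p-values below. Krt8 (chr15:101996698-102004482) and Krt18 (chr15:102028180-102032027) are neighbours that are transcribed away from each other. The sequences are from RefSeq on GRCm38.p6 and run 5′ to 3′ from 250 bases before the annotated start to 20 bases after it, with motif matches in capitals.
Krt5 (chr15:101712886-101713155, minus strand): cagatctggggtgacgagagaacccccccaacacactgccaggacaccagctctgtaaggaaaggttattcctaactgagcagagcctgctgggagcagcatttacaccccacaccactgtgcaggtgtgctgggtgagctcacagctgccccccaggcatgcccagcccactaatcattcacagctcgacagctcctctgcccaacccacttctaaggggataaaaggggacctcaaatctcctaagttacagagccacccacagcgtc
Krt8 (chr15:102004323-102004592, minus strand): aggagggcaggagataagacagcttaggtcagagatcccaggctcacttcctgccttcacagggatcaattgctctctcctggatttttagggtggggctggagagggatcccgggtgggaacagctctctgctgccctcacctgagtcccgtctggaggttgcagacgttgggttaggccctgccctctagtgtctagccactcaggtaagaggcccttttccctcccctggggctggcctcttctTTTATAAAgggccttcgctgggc
Krt18 (chr15:102027966-102028235, plus strand): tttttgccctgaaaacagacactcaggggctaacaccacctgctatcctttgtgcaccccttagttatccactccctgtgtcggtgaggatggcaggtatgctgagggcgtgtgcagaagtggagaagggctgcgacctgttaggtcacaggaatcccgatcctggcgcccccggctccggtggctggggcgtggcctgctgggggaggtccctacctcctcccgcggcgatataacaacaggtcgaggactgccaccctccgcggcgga
Rab25 (chr3:88548260-88548529, minus strand): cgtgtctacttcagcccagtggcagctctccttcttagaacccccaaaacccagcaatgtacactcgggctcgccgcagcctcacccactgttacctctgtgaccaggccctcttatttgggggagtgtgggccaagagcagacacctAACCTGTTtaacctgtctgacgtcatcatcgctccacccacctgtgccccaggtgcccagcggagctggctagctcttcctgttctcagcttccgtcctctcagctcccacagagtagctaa
In Krt8 the capitals are overlapping matches to TATAAA on the plus and minus strand, at the annotated start. In Rab25 they are a match to the Grainyhead-like motif AACCNGTT. In all, 20 of the 40 genes had an entry in the RefSeq table, with 25 windows of 300 bases, each searched on both strands. The Grainyhead-like motif was in 1 of the 25 windows and in 2.09% of all 32851 windows. The TCF/LEF core TCAAAG was in 0 of the 25 and in 16% of all windows. The TATA box TATAAA was in 3 of the 25 and 13.6% of all, and the GC box GGGCGG in 12 of the 25 and 35.7% of all. The windows of Marveld2 overlap, so the same TATA box and GC box of that gene enter these counts repeatedly. A match describes these letters only and is not evidence of binding.

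Estimated depth was 10000000 to 15100000 counted reads per library. Levels are in CPM, reads of a gene scaled to a library total of 1000000. A level of 3 reads corresponds to 0.199 to 0.300 CPM, so every member lay far above the limit that counting sets. Ctnnb1, the targeted gene, was at 698, 784 and 671 CPM in controls 1, 2 and 3 and at 585, 633 and 582 CPM in mutants 5, 6 and 7. Its groups did not overlap, but its log2 change of −0.26 ± 0.10 (SE) had an adjusted p of 0.183 by limma, and the deleted exons could not be counted separately from a gene total. Xist was at 1188 CPM in control 3 and 2054 CPM in mutant 7 and at 13.1 to 17.3 CPM in the other libraries. Genes of 2 other tissues were lower in the mutant libraries: 10 skeletal muscle genes summed to 14256, 6764 and 10160 CPM in controls and 4487, 5581 and 4601 CPM in mutants, and 8 erythroid genes to 1608, 2807 and 4762 CPM in controls and 783, 1371 and 1316 CPM in mutants. By limma, 5 of the 10 muscle genes and 0 of the 8 erythroid genes were lower at an adjusted p below 0.05. The share of all genes lower at that limit was 0.283%. The smallest adjusted p of the erythroid genes was 0.0562 by limma. Ttn alone held 9630 CPM of the muscle sum in control 1. In bulk tissue, fewer cells of a type and less RNA per cell cannot be told apart.

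Loss of β-catenin in the Osr2 lineage was compared with control by limma on log2(CPM + 1), with p-values adjusted over all 21938 genes. None of the 40 epithelial genes passed an adjusted p of 0.05 (0 of 40, against 0.479% of all genes). The smallest adjusted p was 0.091, for Krt15, a keratin of basal epithelial cells. At an unadjusted p below 0.05 there were 6 members, all with the higher mean in the mutant: Krt15, Krt18, Rab25, Ppl, Tjp3 and Dsg2. Over all genes, 13.4% met that limit with a higher mutant mean, 8.07% with a lower one and 21.4% in either direction, and among the 13367 genes at or above the lowest member's mean level (5.11 CPM, a lower limit only, not a match to the members' levels), 11.8% with a higher one, so 6 of 40 is near the background. The groups did not overlap in 4 members (Krt15, Krt18, Rab25 and Tjp3), all higher in the mutant, where 17.1% of all genes, and 14.7% of those at or above the lowest member's level, were separated in that direction and 27.8% of all genes in either.

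The mean on the log2 scale was higher in the mutant in 35 members and lower in 5 (Krt6a, Dsg3, Cldn4, Cldn6 and Spint1). Among all genes 56.1% had the higher mutant mean, and among the genes at or above the lowest member's level 47.7% did. The median log2 change of the members was 0.19, beside 0.04 for all genes and −0.02 for the genes at or above that level. That median fell to 0.01, with 20 members higher and 20 lower, when control 1 was left out. In 36 of the 40 members the 95% interval of the change lay within 2-fold in both directions, as the plot of changes shows.

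**Figure D1:**
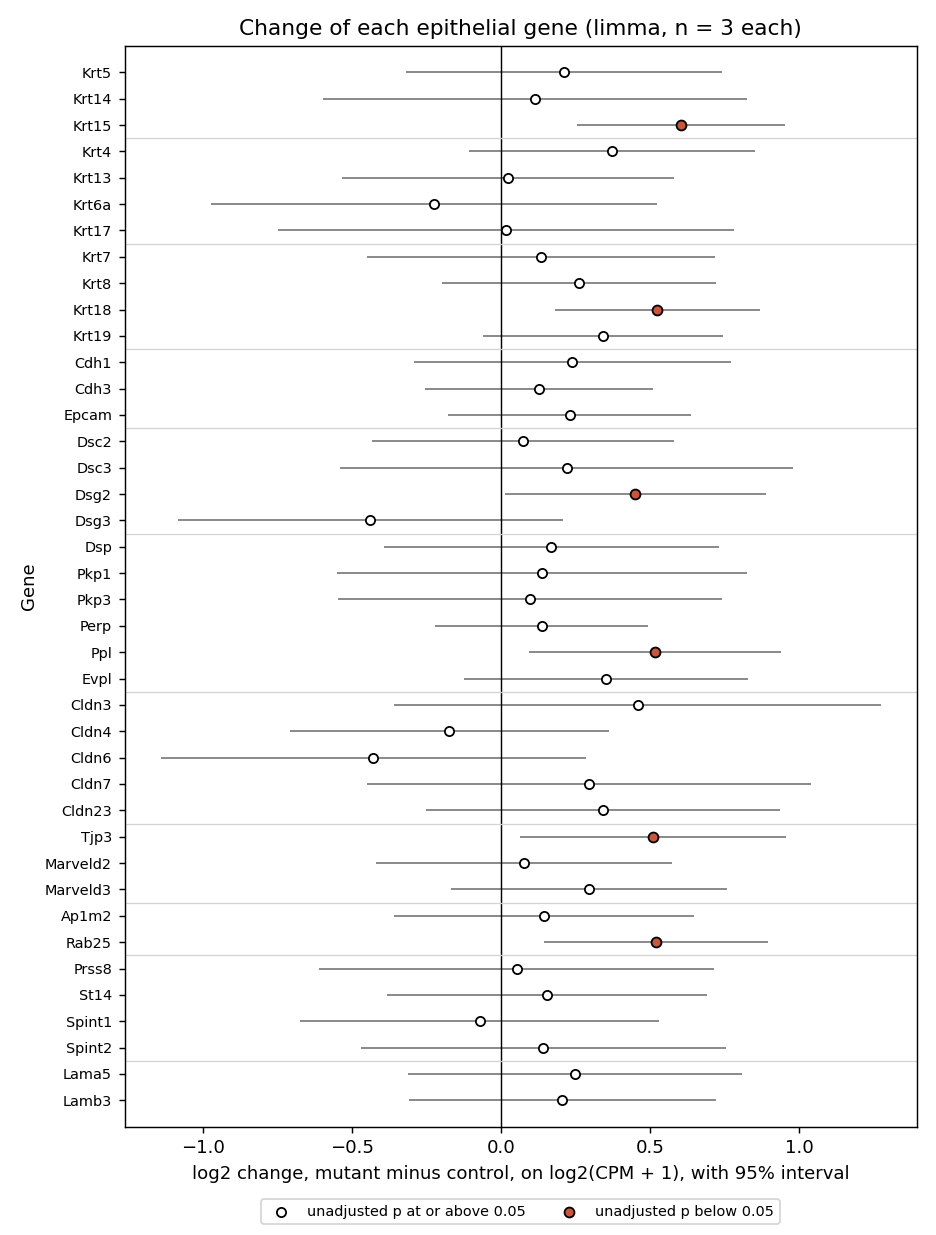
Difference between mutant and control for each of the 40 genes, on the log2(CPM + 1) scale (x axis), with its 95% interval from limma; grey lines divide the 11 role groups. The 6 filled points have an unadjusted p below 0.05 and all lie to the right of 0, and the intervals of all other members include 0.

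Per length of exon, the members covered a wide range of levels. Among controls the highest was Krt15 at 255 CPM per kb, then Krt14 at 202, Krt17 at 181, Dsp at 127 and Krt5 at 107 CPM per kb. Perp and Epcam followed at 70.7 and 70.3 CPM per kb, then Krt6a at 57.8 and Cdh1 at 56 CPM per kb, and then Krt19, Krt18 and Krt8 at 53.2, 50.2 and 49.3 CPM per kb. Perp and Epcam, and likewise Krt19, Krt18 and Krt8, differed among themselves by less than the SD between control libraries. Other members also varied widely between controls, such as Krt14 at 355 ± 138 CPM and Dsp at 1223 ± 360 CPM (SD). The order of neighbours in this ranking is therefore not resolved. At the other end were the tight junction genes Marveld2 at 2.48 and Marveld3 at 1.35 CPM per kb. Per length, basal keratins, Krt17 and desmoplakin were thus the most abundant members, with the simple keratins below them.

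The basal keratins were led by Krt15. Krt15 (chr11:100131758-100135928) was at 371, 506 and 477 CPM in controls 1, 2 and 3 and at 564, 735 and 761 CPM in mutants 5, 6 and 7. Every mutant library lay above every control library. The means were 451 ± 71.3 and 687 ± 107 CPM (SD, n = 3 each), and they differed by 0.60 ± 0.15 (SE) on the log2 scale, or 1.52-fold with a 95% interval of 1.19 to 1.94. The unadjusted p was 0.0036 and the adjusted p 0.091 by limma. Krt5, the type II keratin of basal cells, did not separate the groups. It was at 160, 266 and 278 CPM in controls and 223, 351 and 235 CPM in mutants, so the groups overlapped. Its log2 change was 0.21 ± 0.23 (SE), with an adjusted p of 0.635 by limma. Krt14, the type I partner of Krt5, is named for that pairing and not by the naming rule. Its CPM was 200.4, 399 and 466 in controls and 301, 512 and 306.5 in mutants, and its log2 change was 0.11 with an adjusted p of 0.864 by limma. Both partners were lowest in control 1 and highest in mutant 6.

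**Figure D2:**
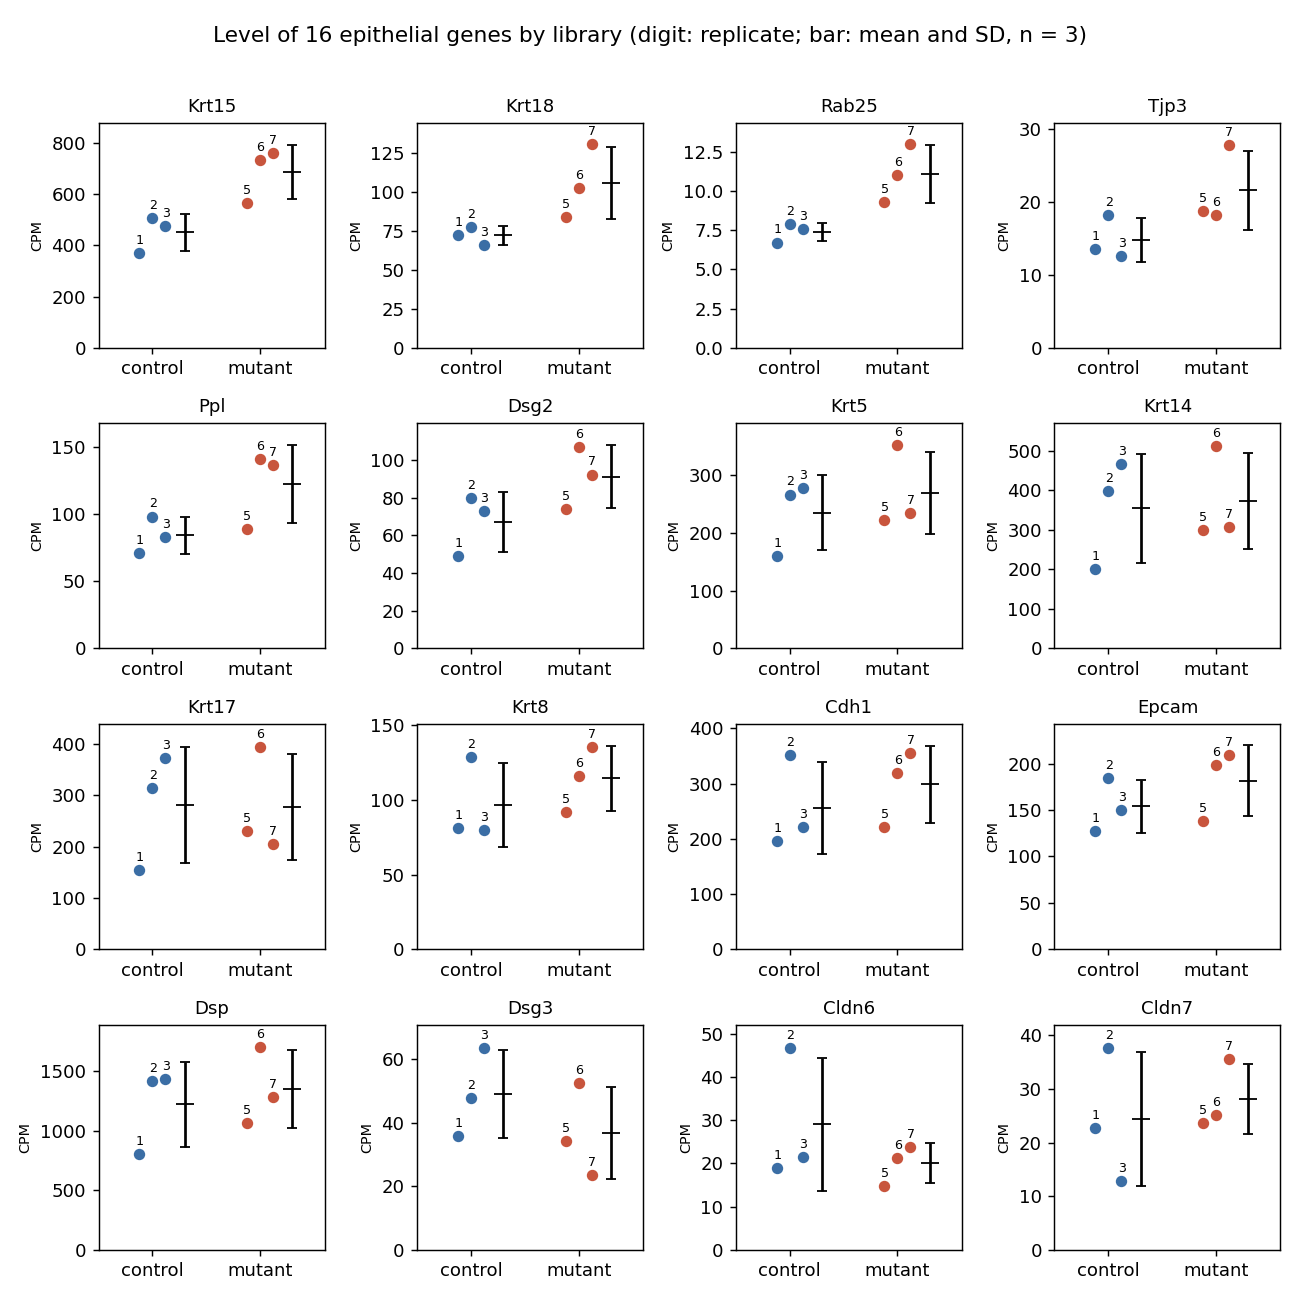
Level in CPM (y axis, from 0) of 16 epithelial genes in each control (blue) and mutant (red) library, with the replicate number over each point and the mean and SD of 3 libraries as a bar. Krt15, Krt18, Rab25 and Tjp3 show no overlap between the groups, and in the other 12 panels at least 1 mutant library lies within the control range.

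Among the keratins of stratified epithelium and periderm, no member met an unadjusted p of 0.05. Krt17, a keratin of periderm and other early epithelial layers, was at 154, 314 and 374 CPM in controls and 230.2, 395 and 205 CPM in mutants. Control 1 and mutant 7 were the low libraries of each group, and the ranges overlapped almost entirely. The log2 change was 0.02 ± 0.34 (SE), with a 95% interval of −0.75 to 0.78, and it became −0.37 without control 1 and −0.27 without mutant 6. Krt6a, another periderm keratin, was at 87.1, 166 and 166 CPM in controls and 108, 182 and 76.1 CPM in mutants, a log2 change of −0.23 ± 0.33 (SE). Mutant 7 held its lowest level of the 6 libraries, and without it the change was 0.07. The reads of Krt6a may be shared with the near-identical Krt6b, which was itself at mean levels of 0.600 and 0.262 CPM. Krt4, a keratin of differentiated oral epithelium, was at 40.1, 40.5 and 31.2 CPM in controls and 33.7, 62.0 and 53.6 CPM in mutants, a log2 change of 0.37 ± 0.21 (SE). Krt13, the partner of Krt4, averaged 16.1 and 16.3 CPM.

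Simple keratins, the filament proteins of single-layered and periderm cells, had the higher mutant mean in 4 of 4 genes. Krt18 was at 72.7, 77.8 and 66.0 CPM in controls and 84.2, 102 and 131 CPM in mutants, without overlap. Its means were 72.2 ± 5.88 and 106 ± 23.4 CPM (SD, n = 3 each), and its log2 change 0.53 ± 0.15 (SE), or 1.44-fold with a 95% interval of 1.13 to 1.83. The unadjusted p was 0.0075 and the adjusted p 0.113 by limma. Krt19, a keratin of simple and immature epithelia, was at 92.9, 112 and 91.4 CPM in controls and 95.8, 125 and 163 CPM in mutants. Only mutant 5 lay inside the control range, and the log2 change was 0.34 ± 0.18 (SE) with an adjusted p of 0.301 by limma. Krt8, the usual partner of Krt18 and named here as such, was at 80.9, 129 and 79.9 CPM in controls and 91.8, 116 and 136 CPM in mutants. Control 2 exceeded mutants 5 and 6 for Krt8, and its log2 change was 0.26 with an adjusted p of 0.49 by limma. Krt7 averaged 44.7 and 48.7 CPM.

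Adhesion molecules of the lateral membrane overlapped between the groups in 3 of 3 genes. Cdh1 encodes E-cadherin, whose cytoplasmic tail binds β-catenin. It was at 196, 351 and 221 CPM in controls and 221, 319 and 356 CPM in mutants. Control 2 stood with mutants 6 and 7, and controls 1 and 3 with mutant 5. The log2 change was 0.24 ± 0.24 (SE), with a 95% interval of 0.816 to 1.71 in fold and an adjusted p of 0.588 by limma. Epcam, a surface molecule of most simple epithelia, was at 128, 184 and 150.4 CPM in controls and 138, 198 and 209 CPM in mutants, a log2 change of 0.23 ± 0.18 (SE). Cdh3, P-cadherin of basal cells, averaged 66.6 and 73.8 CPM.

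The desmosomal cadherins included members whose means differed in opposite directions. Dsg2, the desmoglein of simple epithelia, was at 48.9, 79.6 and 72.7 CPM in controls and 74.1, 107 and 92.3 CPM in mutants. Mutant 5 lay inside the control range, and the log2 change of 0.45 ± 0.19 (SE) had an unadjusted p of 0.045 and an adjusted p of 0.223 by limma. Dsg3, the desmoglein of basal and suprabasal cells of oral mucosa, was at 35.8, 47.9 and 63.7 CPM in controls and 34.3, 52.5 and 23.7 CPM in mutants. Mutants 5 and 7 lay below every control and mutant 6 between controls 2 and 3. Its log2 change was −0.44 ± 0.28 (SE), the lowest of the 40 members, with an adjusted p of 0.406 by limma and the same sign in all 6 fits that left out a library. The difference between the changes of Dsg2 and Dsg3 was not tested. Dsc2, a desmocollin found in most desmosomes, was at 68.0, 118 and 120.3 CPM in controls and 95.4, 129 and 90.9 CPM in mutants, a log2 change of 0.07 ± 0.22 (SE) that became −0.19 without control 1. Dsc3 averaged 48.6 and 56.7 CPM.

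In the desmosomal plaque, which links the cadherins to keratin, all 6 means were higher in the mutant and 1 gene met an unadjusted p of 0.05. Dsp, desmoplakin, had the highest CPM of all members: 808, 1422 and 1440 in controls and 1066, 1710 and 1287 in mutants. Mutants 5 and 7 fell inside the control range. The log2 change was 0.17 ± 0.25 (SE), with an adjusted p of 0.732 by limma, and it became −0.11 without control 1 and −0.01 without mutant 6. Ppl, periplakin, a plakin of differentiating cells that lies at desmosomes and the cornified envelope, was at 71.1, 98.1 and 82.8 CPM in controls and 88.7, 141 and 136 CPM in mutants. Mutants 6 and 7 exceeded every control and mutant 5 did not. The log2 change was 0.52 ± 0.19 (SE), with an unadjusted p of 0.022 and an adjusted p of 0.166 by limma. Its binding partner Evpl, envoplakin, was at 56.2, 88.4 and 70.5 CPM in controls and 66.3, 103 and 108 CPM in mutants, a log2 change of 0.35 ± 0.21 (SE). Pkp1, Pkp3 and Perp had log2 changes of 0.14, 0.10 and 0.14. These were positive in 4, 4 and 5 of the 6 fits that left out a library. Control 1 was the lowest of all 6 libraries in all 6 of these plaque and plakin genes.

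Claudins, the strand-forming proteins of tight junctions, varied most between control libraries. The median ratio of the highest to the lowest control was 2.47 over the 5 claudins and 1.76 over all 40 members. Cldn6, a claudin of embryonic epithelia, was at 18.9, 46.7 and 21.6 CPM in controls and 14.8, 21.4 and 23.8 CPM in mutants. Control 2 alone stood apart, and the log2 change of −0.43 ± 0.31 (SE) became −0.04 without it. Cldn4 was at 21.9, 43.8 and 28.3 CPM in controls and 21.9, 31.7 and 26.9 CPM in mutants, a log2 change of −0.17 ± 0.24 (SE) that became 0.09 without control 2. Both claudins thus had their highest value in control 2, which was the highest control in all 5 claudins and in 30 of the 40 members. It was the highest control in 5539 of the 13367 genes at or above the lowest member's level. Cldn23 was at 5.12, 5.39 and 3.50 CPM in controls and 4.56, 5.32 and 9.21 CPM in mutants, a log2 change of 0.34 ± 0.26 (SE). Cldn3 and Cldn7 were lowest in control 3, at 5.92 and 12.8 CPM, with log2 changes of 0.46 and 0.29. The adjusted p of the 5 claudins lay between 0.464 and 0.704 by limma.

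Of the other tight junction genes, Tjp3 encodes ZO-3, a scaffold under the junction. Tjp3 was at 13.5, 18.2 and 12.5 CPM in controls and 18.7, 18.2 and 27.8 CPM in mutants. Its groups were separated only beyond the printed digits, since control 2 and mutant 6 both stood at 18.2 CPM. The log2 change was 0.51 ± 0.20 (SE), with an unadjusted p of 0.030 and an adjusted p of 0.187 by limma, and it was 0.32 without mutant 7. Its exons overlap those of Apba3 on the opposite strand by 40 bases, and whether the counting used strand is not known. Marveld3, a tetraspan protein of the junction, was at 4.40, 4.69 and 4.20 CPM in controls and 4.56, 5.17 and 7.61 CPM in mutants, a log2 change of 0.29 ± 0.20 (SE). Marveld2, tricellulin, averaged 8.38 and 9.04 CPM.

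Rab25, a small GTPase of apical recycling endosomes in epithelial cells, was at 6.72, 7.88 and 7.55 CPM in controls and 9.29, 11.02 and 12.99 CPM in mutants. The groups did not overlap. The means were 7.39 ± 0.601 and 11.1 ± 1.85 CPM (SD, n = 3 each), and the log2 change of 0.52 ± 0.16 (SE) had an unadjusted p of 0.012 and an adjusted p of 0.133 by limma. Ap1m2, the epithelial subunit of the AP-1 sorting adaptor, was at 7.12, 11.7 and 12.3 CPM in controls and 9.70, 10.6 and 13.8 CPM in mutants. Its low library was control 1, without which the log2 change of 0.14 ± 0.22 (SE) became −0.08.

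The membrane serine proteases and their inhibitors had the smallest median log2 change but 1 of the 11 groups, at 0.10. St14, matriptase, was at 36.1, 56.5 and 36.9 CPM in controls and 34.7, 46.4 and 64.8 CPM in mutants. Spint2, an inhibitor of matriptase and of prostasin, was at 64.5, 119 and 56.4 CPM in controls and 65.8, 83.9 and 106 CPM in mutants. Control 2 and mutant 7 were high for both, and the log2 changes of 0.15 ± 0.24 and 0.14 ± 0.27 (SE) turned to −0.07 and −0.03 without mutant 7. Spint1 averaged 20.5 and 19.2 CPM and Prss8, prostasin, 5.80 and 6.15 CPM; exons of Prss8 overlap Kat8 on the opposite strand by 122 bases.

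Laminins form the basement membrane under the epithelium. Lama5, the α5 chain, was at 84.8, 176 and 117 CPM in controls and 113, 157 and 166 CPM in mutants, a log2 change of 0.25 ± 0.25 (SE). Lamb3, a chain of the laminin that anchors hemidesmosomes, was at 24.2, 49.5 and 39.3 CPM in controls and 37.7, 46.9 and 41.3 CPM in mutants, a log2 change of 0.20 ± 0.23 (SE). Control 1 was the lowest library for both, and without it the changes were −0.0041 and −0.08.

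**Figure D3:**
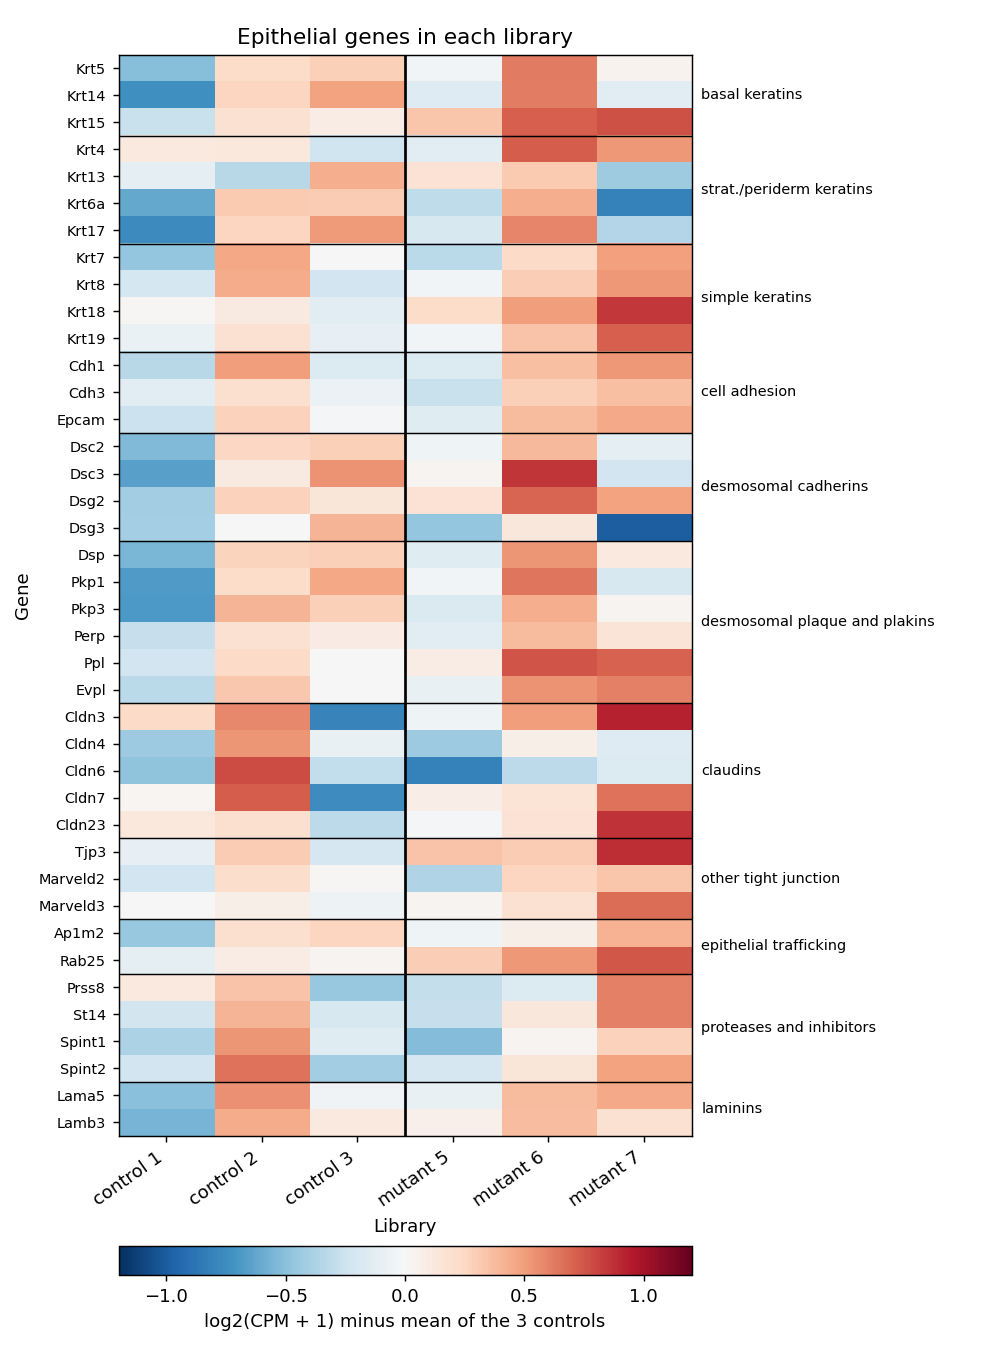
Level of each of the 40 genes (rows, by role) in each of the 6 libraries (columns) as log2(CPM + 1) minus the mean of the 3 controls, blue for lower and red for higher. Control 1 is blue in most rows. Krt5, Krt14, Krt17 and Dsp have their highest level in mutant 6, and Krt8, Krt18, Krt19, Cldn3 and Cldn23 in mutant 7.

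For most members, the ratio of the highest to the lowest library within a genotype exceeded the fold between the group means. A ratio of extremes tends to exceed a fold between means, so other genes are given beside the members. The median ratio of the highest to the lowest library was 1.76 among controls and 1.61 among mutants, and the median fold between the group means was 1.15. In 32 of 40 members both within-group ratios exceeded the fold between means. For the 13367 genes at or above the lowest member's level, the same medians were 1.26, 1.19 and 1.13, and both ratios exceeded the fold between means in 7201. Control 1 was the lowest control in 28 members and the lowest of all 6 libraries in 21, against 4362 and 2097 of the 13367 genes. Mutant 5 was the lowest mutant in 32, against 5590 of the 13367 genes. The summed CPM of the members was 3322, 5495 and 5093 in controls and 4269, 6397 and 5397 in mutants, in step with control 1 and mutant 5 being low. In control 1 the skeletal muscle genes had their highest sum, 14256 CPM, and so did 11 palatal mesenchyme genes, at 11621 CPM. The mesenchyme sum was 9934 and 7766 CPM in controls 2 and 3 and 9647, 9186 and 6932 CPM in mutants 5, 6 and 7. The part of tissue make-up in the epithelial levels was not tested.

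The members also divided by which library of a genotype was high, a pattern seen in these values and given without a test. In 22 of 40 genes (55%) control 3 lay below control 2 and mutant 7 above mutant 6, where 28.9% of the 13367 genes did so. These 22 held all 4 simple keratins, all 3 adhesion genes, all 3 other tight junction genes, all 4 protease and inhibitor genes, 4 of 5 claudins, and Krt15, Evpl, Rab25 and Lama5. In 9 genes (22.5%, against 27.1% of the 13367 genes) control 3 lay above control 2 and mutant 7 below mutant 6. Those 9 were Krt5 and Krt14 (2 of 3 basal keratins), Krt13 and Krt17 (2 of 4 stratified and periderm keratins), Dsc2, Dsc3 and Dsg3 (3 of 4 desmosomal cadherins), and Dsp and Pkp1 (2 of 6 plaque and plakin genes). In 8 genes, among them Krt4, Krt6a, Dsg2, Pkp3, Perp and Ppl, the later-numbered library was the lower in both groups, and in 1, Ap1m2, it was the higher in both.

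This division rests on sign alone, and the genes given next lie among those with ratios furthest from 1. Other members were placed by ratios near 1. Control 3 over control 2 was 1.01 for Dsp and 1.02 for Dsc2, and mutant 7 over mutant 6 was 1.05 for Epcam and Lama5. Cldn7 was at 22.8, 37.6 and 12.8 CPM in controls 1, 2 and 3 and at 23.6, 25.1 and 35.6 CPM in mutants 5, 6 and 7. Dsc3, a desmocollin of basal cells, was at 29.0, 49.6 and 67.3 CPM in the same controls and at 46.9, 84.2 and 39.0 CPM in the mutants. Within each genotype the 2 genes placed the later libraries in opposite order. Control 3 held 0.341 of the Cldn7 level of control 2 and 0.349 of its Cldn3 level, but 1.36 times its Dsc3 and 1.76 times its Krt13. Mutant 7 held 1.42 times the Cldn7 of mutant 6 and 1.36 times its Cldn3, but 0.464 of its Dsc3 and 0.577 of its Krt13. The ratio of Krt14 to Krt18 in CPM was 2.76, 5.13 and 7.06 in controls and 3.57, 5.00 and 2.35 in mutants. For this pair of keratins control 3 had the highest ratio and mutant 7 the lowest. Control 3 and mutant 7 were the libraries with high Xist, and for this ratio they deviated in opposite directions. With 1 such library in each genotype, sex and other differences between libraries cannot be told apart.

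**Figure D4:**
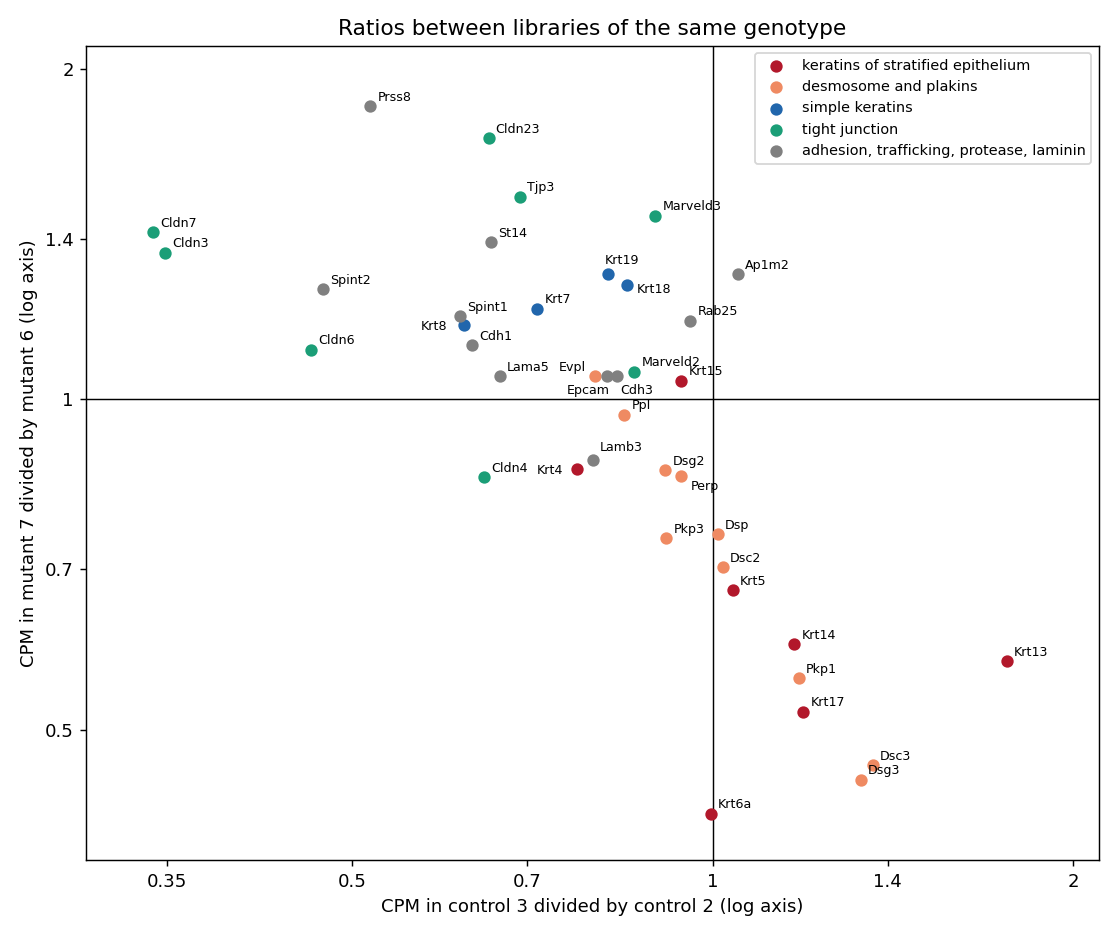
CPM in control 3 divided by control 2 (x axis) against CPM in mutant 7 divided by mutant 6 (y axis) for each of the 40 genes, both axes on a log scale, coloured by role. The upper left holds 22 of the 40 genes, with all 4 simple keratins and all tight junction genes but Cldn4. The lower right holds 9, all of them desmosomal genes or keratins of stratified epithelium, other members of which lie elsewhere.

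Markers of multiciliated and nasal epithelium divided the libraries as the larger set did. The list held 14 genes, of which 10 were measured and none was at 0 in any library, among them Foxj1, which drives the motile cilia programme. Their summed CPM was 272, 355 and 142 in controls and 376, 327 and 602 in mutants. Of the 10, 8 lay below in control 3 and above in mutant 7, and 2 were lower in both. Control 1 was the lowest control in 0 of the 10, against 28 of the 40 members. Mutant 5 was the lowest mutant in 2 of the 10, against 32 of the 40 members. None passed an adjusted p of 0.05, and 5 met an unadjusted p of 0.05 with the higher mean in the mutant, as 13.4% of all genes did. Foxj1 was at 64.2, 104 and 32.5 CPM in controls and 75.4, 79.3 and 96.2 CPM in mutants. Muc16, a mucin of wet-surfaced epithelium, was at 38.1, 59.9 and 23.3 CPM in controls and 91.6, 73.4 and 212 CPM in mutants, without overlap, with a log2 change of 1.56 ± 0.41 (SE) and an adjusted p of 0.101 by limma. The part of the nasal epithelial share in the levels of the members was not tested. Of 8 pituitary markers only 2 were measured, Pomc at 0.720 to 1.14 CPM and Six6 at 0 to 2.61 CPM.

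**Figure D5:**
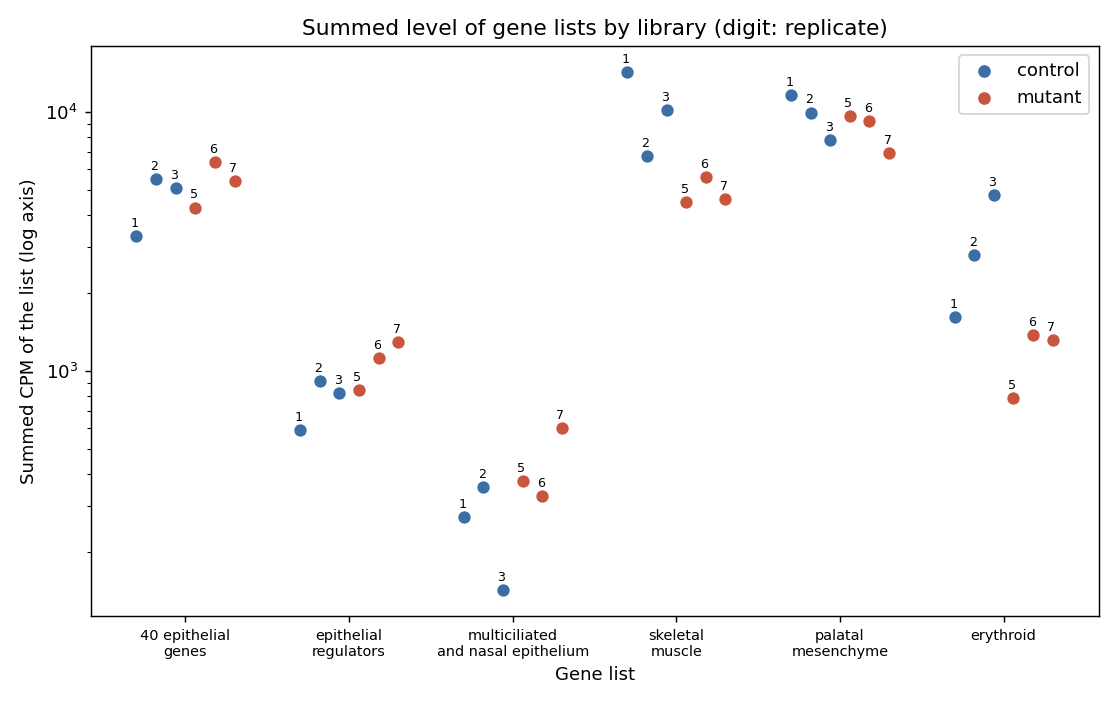
Summed CPM (y axis, log scale) of the 40 epithelial genes and of 5 other gene lists in each control (blue) and mutant (red) library, with replicate numbers. The epithelial sums of the groups overlap, the sums of skeletal muscle and erythroid genes are lower in all 3 mutant libraries, and the nasal list is lowest in control 3 and highest in mutant 7.

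Ratios between epithelial genes within a library cancel a change that both genes share equally. They do not cancel a change that the 2 genes do not share, such as the division between libraries given above. Across 8 such ratios none passed an exact two-sided permutation test, whose smallest possible p with 3 libraries against 3 is 0.1. Krt15 per Epcam was 2.90, 2.74 and 3.17 in controls and 4.09, 3.70 and 3.63 in mutants. The groups did not overlap, with means of 2.94 ± 0.214 and 3.81 ± 0.246 (SD), an exact permutation p of 0.1 and 0.4 after adjustment over the 8. Krt15 per Krt5 averaged 1.98 ± 0.307 and 2.62 ± 0.577 (SD, exact permutation p of 0.2). Krt18 per Krt8 averaged 0.776 ± 0.154 and 0.921 ± 0.039 (SD, exact permutation p of 0.2), and control 1, at 0.898, lay within the mutant range of 0.884 to 0.962. Krt18 per Epcam gave an exact permutation p of 0.2 as well. The basal pair Krt5 and Krt14 had a ratio of 0.596 to 0.798 in controls and 0.686 to 0.767 in mutants.

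Related genes outside the 40 gave the same count of 0 past an adjusted p of 0.05 in each of 5 lists. Of the epithelial regulators, 17 of 17 were measured, 7 met an unadjusted p of 0.05, all with higher mutant means, and the median log2 change was 0.46. Over all genes, 13.4% met that limit with a higher mutant mean, and 11.8% of those at or above the lowest member's level did. Ehf, an ETS transcription factor of epithelia, was at 94.6, 135 and 74.7 CPM in controls and 149, 160 and 324 CPM in mutants. Its groups did not overlap, and its log2 change of 1.00 ± 0.30 (SE) had an adjusted p of 0.122 by limma. Klf5 was at 105, 127 and 108 CPM in controls and 131, 160 and 218 CPM in mutants, a log2 change of 0.55 ± 0.17 (SE), adjusted p of 0.13 by limma. Both regulators were highest in mutant 7, as were most tight junction members.

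Other tight junction and polarity genes were measured in 18 of 19 cases, and 4 met an unadjusted p of 0.05, all with higher mutant means. The share of all genes that did so was 13.4%. Cgn, cingulin of the junctional plaque, was at 24.7, 33.9 and 28.3 CPM in controls and 39.8, 45.8 and 68.8 CPM in mutants. With no overlap, its log2 change of 0.78 ± 0.20 (SE) had an adjusted p of 0.092 by limma. Patj, a scaffold of the Crumbs polarity complex, was at 71.0, 90.5 and 76.5 CPM in controls and 94.4, 119 and 134 CPM in mutants, a log2 change of 0.53 ± 0.14 (SE), adjusted p of 0.102 by limma.

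Hemidesmosome and basement membrane genes (13 of 13 measured) had 0 members at an unadjusted p of 0.05, against 21.4% of all genes, and a median log2 change of 0.14. Dst, dystonin, was at 849, 769 and 804 CPM in controls and 1040, 902 and 887 CPM in mutants, without overlap. Col17a1, a hemidesmosomal collagen, averaged 136 ± 43.0 and 184 ± 37.9 CPM (SD). Other desmosomal genes (5 of 5 measured) had 0 at an unadjusted p of 0.05, with Pkp2 at 6.54 ± 1.30 and 9.42 ± 2.25 CPM and Pkp4 at 120.2 ± 9.18 and 138 ± 22.2 CPM (SD). Of 15 other keratins 9 were measured, 0 at an unadjusted p of 0.05, with Krt20 averaging 5.63 and 3.82 CPM and Krt77 2.30 and 1.46 CPM.

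Leaving out 1 library at a time moved the count of members at an unadjusted p of 0.05 between 2 and 12. It was 2 without mutant 7 and 3 without control 1, and it was 12 without control 2 and 11 without mutant 5. The share of all genes at that limit was not computed for these fits, so the counts have no background beside them. Krt15 and Krt18 met that limit in all 6 of these fits and Rab25 in 5 of 6. Dsg2 and Tjp3 met it in 3 and Ppl in 2. The authors' deposited table of a filtered set of 2432 genes, 11.1% of the full table, held Krt15 and Rab25 and no other member, and no source used here gives the rule behind that filter.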

How the data were processed

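The authors deposited each library as CPM, reads of a gene scaled to a library total of 1000000, with 0.0001 added to every value; that constant was removed. The submitters' processing notes name STAR and mm10, without a version. How reads were counted, on which strand and against which gene models were not given in the sources used here. Samples are rows of the table and were matched by name, and 0 columns of per-sample values were left unused. As read from the steps between low CPM values, 64.0 to 68.2% of them were whole reads within 0.02 read, so counts were not recovered and no count model was used.

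The mutant and control libraries were compared with limma 3.58.1 (R 4.3.3) on log2(CPM + 1), with an intensity trend, no filter on low values and Benjamini-Hochberg adjustment over all 21938 genes at a threshold of 0.05. This scale understates the change of low genes. Checked on simulated libraries for mutant against control, with 200 of 21938 genes altered and a coefficient of variation of 15% between libraries, the test called 11.9% of genes at 1.5-fold, 86.6% at 2-fold and 100% at 3-fold, and 3 genes falsely. The members varied more between libraries than the 13367 genes at or above the lowest member's level did. These simulated shares may therefore be too high for the members. Floors from depth cover counting error only.

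The members, the gene lists and the tests were chosen with earlier results of these data known. In each role group the member with the highest mean level and the 2 with the smallest p were given in full, from each further epithelial list the 2 with the smallest p, and from marker lists the 2 with the highest level where a result turned on them. Krt14, Krt8 and genes named only in counts or patterns were named after their values were seen. The marker lists for endothelium, palatal mesenchyme, macrophage and neural cells had 0 genes past the threshold by limma, with 0, 3, 1 and 0 genes at an unadjusted p below 0.05. All of those genes had the lower mutant mean. Over all genes, 8.07% met that limit with a lower mutant mean. Gene positions, exon lengths and overlaps come from GENCODE vM21 (GRCm38, the same assembly as mm10), matched by symbol for all 40 members. Alternatives changed the threshold, the pseudocount (0.1), a filter (mean of at least 1 CPM), the scaling or the trend, added a covariate for the sex that Xist (above 100 CPM) implies, or left out each library; robust fitting was added after the data were seen. The groups have no replicate number in common, so no block was used. Figures were drawn with matplotlib 3.10.9 in Python 3.11.15.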

Additional observations from a re-analysis of the deposited data

How the results depend on the processing

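None of the 40 members passed the adjusted threshold of 0.05 under any alternative run; at a threshold of 0.1, 1 member did (Krt15, adjusted p = 0.091 by limma), beside 999 of all genes (4.55%). The count over all genes, 105 (43 higher, 62 lower), was 0 without the intensity trend, 0 with sex as a covariate, 174 with robust fitting, and 0 to 452 when 1 library was left out; scaling the libraries gave 67 higher and 64 lower. The count of members at an unadjusted p below 0.05 was 2 to 12 over the leave-one-out fits, without an all-gene share computed beside it. The median log2 change of the members was 0.01 to 0.34 over these fits. The cause was not tested. Of 338 values of the 26 members given in full, over 13 alternatives, 322 kept direction and side of the threshold, 1 (Krt15 at 0.1) passed, and 15 changed sign, all in leave-one-out fits. Their lowest and highest log2 changes there were −0.04 and 0.35 (Krt5), −0.37 and 0.27 (Krt17), −0.19 and 0.21 (Dsc2), −0.11 and 0.33 (Dsp), −0.08 and 0.27 (Ap1m2), −0.0041 and 0.52 (Lama5), −0.08 and 0.43 (Lamb3), −0.39 and 0.09 (Cldn4), −0.07 and 0.47 (Spint2), −0.56 and 0.07 (Krt6a) and −0.07 and 0.37 (St14). No paired analysis was possible because the groups share no replicate numbers. With 3 libraries a group and a variation of 15% between libraries, 11.9% of simulated 1.5-fold changes were called. A change of the size of Krt15's would mostly be missed at that variation. The members had a median ratio of highest to lowest control of 1.76, against 1.26 for the 13367 genes. The simulated shares may therefore be too high for the members.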
